A study of Mus musculus with 6 samples.

Results

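The genes described here encode the core histones H2A, H2B, H3 and H4 and the linker histone H1, measured in mouse CD4+ T cells with and without the histone deacetylase HDAC1. They were chosen by name alone: 82 of the 55536 genes in the deposited count table are protein-coding and carry a symbol that starts with Hist1h to Hist4h, H2af, H3f3 or H1f. Of these, 67 are Hist genes, called replication-dependent, and 15 are replacement genes. Messenger RNA was sequenced in 6 libraries of 500 sorted cells each, 3 from 2D2-HDAC1-cKO donors and 3 from 2D2-WT donors, and the question put to these genes was how their levels differ between the genotypes.

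Donor cells of both groups came from mice of the label strain C57BL/6 that carried the 2D2 T cell receptor transgene, whose receptor recognises a peptide of myelin oligodendrocyte glycoprotein (MOG), and floxed Hdac1 alleles. The 2D2-HDAC1-cKO group (genotype 2D2-Hdac1fl/fl-Cd4-Cre+) also carried Cre recombinase driven by Cd4 regulatory sequence, which acts from the CD4-expressing thymocyte stage and therefore also in cells that become CD8 T cells. The 2D2-WT group (2D2-Hdac1fl/fl-Cd4-Cre-) had the floxed alleles without Cre, so no group controls for Cre alone. Naive CD45.2+ cells were injected into CD45.1+ recipients, which kept their own HDAC1, and 18 hours later the recipients were immunised in the footpad with MOG35-55 peptide in complete Freund's adjuvant. The cells were sorted from popliteal lymph nodes 4 days after that, with 2 mice pooled per library. The labels used here state neither the age nor the sex of the animals. Values below are CPM (counts scaled to a common library total) for a gene across libraries, and the authors' FPKM, which divide by gene length, wherever levels of different genes are set side by side.

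Replication-dependent histone genes supply histones for newly copied DNA and are transcribed mainly in S phase. Most of their messages have no poly(A) tail and end instead in a short stem-loop that the protein SLBP binds. Replacement genes are expressed through the cell cycle, have polyadenylated messages and introns in many cases, and encode variants placed into chromatin outside replication. HDAC1 removes acetyl groups from histone tails, and T cells activated in a lymph node divide rapidly and need a full set of new histones in each S phase. The libraries were primed on poly(A) tails by Smart-seq2, so the levels of messages that lack a tail are those that this method captured, and do not measure all histone mRNA in the cell.

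The stem-loop that separates the 2 kinds of message was searched for in the GENCODE M21 transcripts of GRCm38, on the transcript's strand, as GG, any 4 bases, TTT, any 5 bases and CC, with outer arms of 6 bases that pair. It was found in 44 of 67 replication-dependent genes (65.7%) and in 1 of 15 replacement genes (6.67%), beside 68 of 21901 protein-coding genes in all (0.31%). The versions carried by the members are shown because they divide the genes by class, with the 4 loop bases in capitals and the arms in lower case.
Most H1, H2A, H2B and H3 genes with a match: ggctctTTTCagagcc
Most H4 genes with a match: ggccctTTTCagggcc
Hist1h1t and some H2B and H3 genes: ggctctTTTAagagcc
Hist1h4i and Hist2h4: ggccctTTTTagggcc
Hist1h4b and Hist1h4j: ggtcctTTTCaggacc
H2afx: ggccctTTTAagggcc
Hist2h2ac: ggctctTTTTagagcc
The first of these was in 26 members and the second in 7, all of class H4. A polyadenylation signal, AATAAA or ATTAAA, lay in the last 50 bases of a transcript of 17 replication-dependent genes (25.4%) and 11 replacement genes (73.3%). H2afx, which encodes the variant H2A.X that is phosphorylated beside DNA breaks, had both a stem-loop and a polyadenylation signal. The other 19 replication-dependent genes (28.4%) had neither match, which says only that these letters are not in the annotated transcripts.

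HDAC1-cKO libraries held 19956153 to 36307610 counts and WT libraries 39036751 to 55900237. Hdac1 itself was at 17.2, 14.7 and 15.4 CPM in the HDAC1-cKO libraries and 234, 236 and 244 CPM in the WT libraries, 6.63% of the WT mean, which fits the labels (log2 fold change -3.91 ± 0.12 SE, edgeR adjusted p = 9.6e-06). All 12 T cell markers were detected, with summed levels of 25600 to 34730 CPM in HDAC1-cKO and 30050 to 35910 CPM in WT, and 2 of them, Cd2 and Cd3e, were called lower in HDAC1-cKO by edgeR, where 0.992% of all genes were (median log2 fold change of the list -0.27). DESeq2 called 4 of the 12 lower and limma-voom 8, where these tools called 3.69% and 5.17% of all genes lower. HDAC1-cKO replicate 2 stood apart: its log2 deviations correlated with GC content of 10896 well-covered genes at r = 0.536, whereas the other 5 libraries lay between -0.258 and -0.0478. Replication-dependent histone genes have a median GC content of 57.5% against 50.2% for all tested genes. The called gene, the medians of H2B, H3 and H4 and some of the genes whose value moved with this library are therefore also given without it. Single H2B genes are not. In bulk samples such as these, fewer cells in S phase and less histone RNA per cell cannot be told apart.

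Across the 15519 genes tested with edgeR's quasi-likelihood test, 306 (1.97%) differed between genotypes at an adjusted p under 0.05, 152 higher (0.979%) and 154 lower (0.992%) in HDAC1-cKO. Of the 82 histone genes, 63 had enough counts to be tested, 54 replication-dependent and 9 replacement. A single histone gene passed, the H2A gene Hist1h2an, which fell. The medians of the log2 fold changes were 0.26 for the 54 replication-dependent genes and 0.09 for the 9 replacement genes, beside -0.00 for all genes. At an unadjusted p under 0.05 there were 4 replication-dependent genes higher and 4 lower, 14.8% of those tested against 17.0% of all genes, and 0 replacement genes. DESeq2 and limma-voom also called 0 histone genes higher, where they called 3.93% and 4.81% of all genes higher. The libraries of the groups did not overlap for 7 replication-dependent genes with HDAC1-cKO above and 3 with HDAC1-cKO below, in a table where 24.6% of all tested genes did not overlap.

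**Figure D1:**
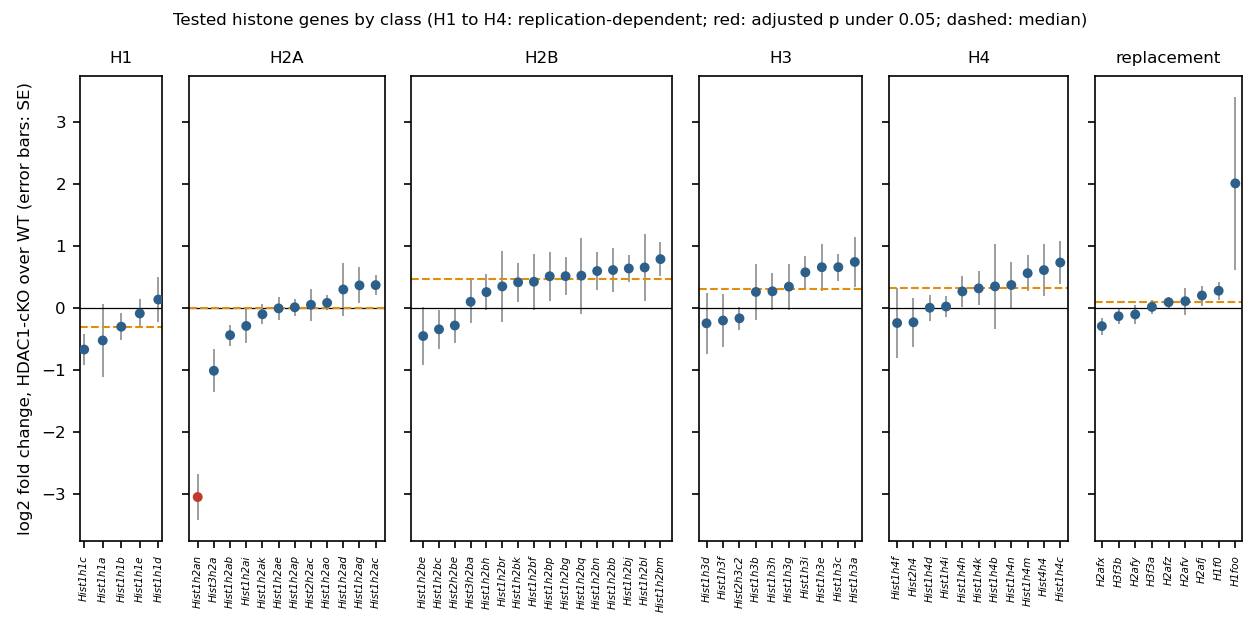
Log2 fold change of HDAC1-cKO over WT (vertical axis) for each of the 63 tested histone genes, grouped by class, with standard errors as bars and class medians as dashed lines. Hist1h2an, the red point at -3.04, lies far below the others and is the only gene with an adjusted p under 0.05.

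Summed over all 67 genes, replication-dependent histone mRNA was at 1535, 1819 and 1538 CPM in the HDAC1-cKO libraries and 1780, 1360 and 1815 CPM in the WT libraries. The groups overlapped, and the ratio of their means was 0.987. These genes took 0.134% to 0.187% of all counts in a library, and the replacement genes 0.553% to 0.59%. The replacement sum was also level, at 5879, 5467 and 5404 CPM in HDAC1-cKO against 5686, 5661 and 5789 CPM in WT (ratio 0.977). Class sums were carried by H2A, with 1277 to 1484 CPM in HDAC1-cKO and 1140 to 1530 CPM in WT. The H2B sum, at 54.1, 82.6 and 62.8 CPM in HDAC1-cKO and 50.7, 43.1 and 54.8 CPM in WT, overlapped by a narrow margin (ratio of means 1.34). The H1 sum was the only class sum whose groups did not overlap, at 31.0, 28.7 and 31.7 CPM in HDAC1-cKO below 48.9, 32.6 and 32.4 CPM in WT (ratio 0.802), and WT replicate 1 was far above the other WT libraries. No test was made of these sums.

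**Figure D2:**
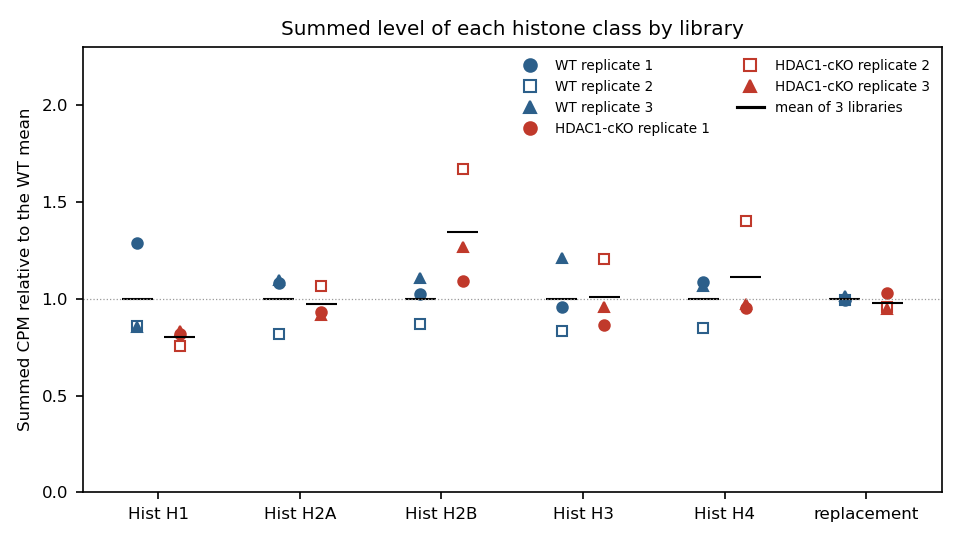
Summed CPM of each histone class in each library, divided by the WT mean of that class (vertical axis), with 1 symbol per library and black bars at the mean of 3 libraries. HDAC1-cKO replicate 2 (open red square) is the highest library for H2B and H4, and the replacement genes vary least.

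Hist1h2an (ENSMUSG00000069309) encodes a canonical H2A and lies on chromosome 13, bases 21786826 to 21787218 of the minus strand of GRCm38, inside the large Hist1 cluster. Its annotated transcript is a single exon of 393 bases, all of it coding. It had 134, 236 and 86 counts in the HDAC1-cKO libraries and 2609, 1179 and 1862 counts in the WT libraries, that is 4.11, 6.31 and 4.21 CPM against 50.9, 21.4 and 49.0 CPM. All 3 HDAC1-cKO libraries were below all 3 WT libraries, and WT replicate 2 was the lowest of the WT group. The HDAC1-cKO mean was 12.1% of the WT mean (on the FPKM scale 12.2 ± 3.09 against 101.8 ± 41.5, SD, n = 3 each). The log2 fold change was -3.04 ± 0.36 SE, at an adjusted p of 0.013 by edgeR. DESeq2 (adjusted p = 7.73e-17) and limma-voom (adjusted p = 0.00738) also called it, and it was still called when HDAC1-cKO replicate 2 was dropped (-3.29, edgeR adjusted p = 0.0177). The call ended, with log2 fold changes of -2.93, -2.95, -2.86 and -2.89, when HDAC1-cKO replicate 1, HDAC1-cKO replicate 3, WT replicate 1 or WT replicate 3 was left out (edgeR adjusted p = 0.0701, 0.0902, 0.0517 and 0.0613). Of the 306 calls over all genes, leaving out these libraries in the same order kept 27, 26, 44 and 26. Without WT replicate 2, which kept 34 of the 306, Hist1h2an was still called (-3.36, edgeR adjusted p = 0.00726).

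Because H2A genes are near-identical copies, the part of Hist1h2an that can be told from the others is shown. Of the 344 distinct 50-base stretches in its transcript, the length of the reads, 85.8% also occur in a transcript of another gene, and the 49 that do not all lie in the last 98 bases, from base 296 to base 393 counted from 1 at the first coding base. Each of those 49 contains bases 344 and 345, which are in capitals.
Hist1h2an, bases 296 to 393: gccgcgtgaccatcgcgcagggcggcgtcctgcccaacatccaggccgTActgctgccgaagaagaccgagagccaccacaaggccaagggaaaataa
Against 14 other H2A genes of equal coding length, 13 have A345G and 13 have G354C, written with the Hist1h2an base first, and 0 have A at position 345. The closest copies, Hist1h2ad (C24T, A345G, G354C, A387G) and Hist1h2ag (G150C, A345G, G354C, A387G), differ at 4 positions. Hist1h2ao and Hist1h2ap differ at the 5 positions A18G, C24T, G150C, A345G and G354C. Predicted proteins of 8 of the copies are the same as that of Hist1h2an over 130 codons, so these genes encode the same predicted histone. On the opposite strand, Gm44346 overlaps 35.9% of its exon bases, and these libraries do not mark strand. The labels do not say how reads that match several copies were counted, and the part of such reads in the difference was not tested.

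Near-identical copies with higher levels did not pass the test. Hist1h2ap, the most abundant replication-dependent gene at a mean of 1220 FPKM over the 6 libraries, was at 569, 650 and 572 CPM in HDAC1-cKO and 627, 490 and 660 CPM in WT (log2 fold change 0.01 ± 0.13 SE, edgeR adjusted p = 0.979). Hist1h2ao, next at 714 FPKM, was at 355, 376 and 340 CPM against 364, 288 and 359 CPM (0.08 ± 0.12 SE, edgeR adjusted p = 0.796). The groups overlapped for both genes. The ratio of Hist1h2an to Hist1h2ao in FPKM was 0.0141, 0.0205 and 0.0151 in HDAC1-cKO and 0.171, 0.0909 and 0.167 in WT. The ratio of Hist1h2ao to Hist1h2ap was 0.626, 0.58 and 0.597 in HDAC1-cKO and 0.583, 0.59 and 0.546 in WT, with overlapping groups. Hist1h2ao shares 93.5% of its 50-base stretches with Hist1h2ap, and Hist1h2ap 93.1% with Hist1h2ao. Reads of these genes can hardly be told apart, so this ratio is no independent comparison for Hist1h2an. The part of read assignment in it was not tested. Per length, Hist1h2an was at 10.3, 15.8 and 10.6 FPKM in HDAC1-cKO and 128, 53.9 and 124 FPKM in WT.

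**Figure D3:**
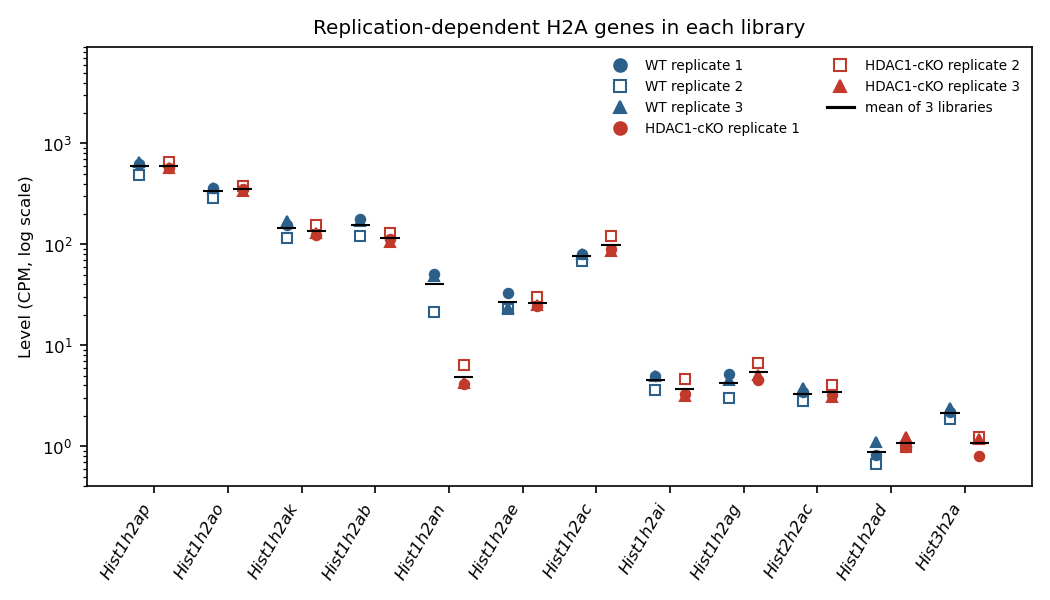
CPM of the 12 tested replication-dependent H2A genes in each library (log scale), ordered by mean FPKM, with WT in blue, HDAC1-cKO in red and black bars at the mean of 3 libraries. The Hist1h2an groups are separated, with an HDAC1-cKO mean at 12.1% of WT, while those of Hist1h2ap, Hist1h2ao and Hist1h2ak overlap.

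Hist1h2an forms a divergent pair with the H2B gene Hist1h2bp, whose RefSeq start lies 240 bases away on the opposite strand, so that both genes share an upstream region. That region is shown from the RefSeq promoter table (GRCm38.p6), as the 250 bases before the Hist1h2an start, chr13:21787249-21787498, minus strand, with capitals for CCAAT on either strand (ATTGG is its reverse) and for TATAAA.
Hist1h2an upstream region: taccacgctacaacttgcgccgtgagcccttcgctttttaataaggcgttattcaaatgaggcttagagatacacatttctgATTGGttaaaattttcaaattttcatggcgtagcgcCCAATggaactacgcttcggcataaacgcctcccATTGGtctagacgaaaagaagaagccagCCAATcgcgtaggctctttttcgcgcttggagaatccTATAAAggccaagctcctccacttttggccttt
It holds 4 CCAAT motifs and 1 TATAAA. Hist1h2bp, named here for its position, was low throughout, at 1.04, 1.34 and 1.86 CPM in HDAC1-cKO and 0.956, 0.927 and 1.08 CPM in WT, and did not pass the test (0.51 ± 0.40 SE, edgeR adjusted p = 0.581). Promoters of 300 bases around the RefSeq start were matched for 73 of the 82 members, 61 replication-dependent and 12 replacement. Searched on both strands, CCAAT was in 85.2% of the replication-dependent, 75% of the replacement and 37.4% of all 32851 promoters. TATAAA was in 55.7%, 0% and 13.6% of them, and ATTTGCAT, the octamer bound by OCT1, in 21.3%, 0% and 1.74%. The Hist1h2ao and Hist1h2ap windows hold 3 CCAAT each and 0 TATAAA, and a match or its absence is a description of these letters only.

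Of the other replication-dependent H2A genes, Hist1h2ab was at 114, 129 and 104 CPM in HDAC1-cKO and 178, 121 and 171 CPM in WT, and did not pass (log2 fold change -0.44 ± 0.17 SE, edgeR adjusted p = 0.231). Only WT replicate 2 lay within the HDAC1-cKO range. Of the 50-base stretches of Hist1h2ab, 58.0% also occur in another gene. Hist3h2a, outside the Hist1 cluster on chromosome 11, was lower in all 3 HDAC1-cKO libraries (0.797, 1.23 and 1.18 CPM against 2.21, 1.85 and 2.40 CPM) without passing (-1.01 ± 0.35 SE, edgeR adjusted p = 0.186), and it had only 24 to 113 counts per library. Trim17 overlaps it on the same strand and shares 31.5% of its 50-base stretches, so reads of these genes cannot be told apart there. Hist1h2ac was higher in all 3 (90.01, 120 and 85.7 CPM against 80.6, 68.8 and 80.1 CPM), also without passing (0.37 ± 0.16 SE, edgeR adjusted p = 0.283). Leaving out HDAC1-cKO replicate 2, its highest library, gave 0.192. Hist1h2aj, an H2A gene of the same cluster, is annotated as a pseudogene and is not a member. The median over the 12 tested H2A genes of 18 was 0.00. Without Hist1h2an, the H2A sum had a ratio of group means of 0.997.

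H2B, the partner of H2A in the nucleosome, had the highest class median, 0.47 over 16 tested genes of 18, with 13 above 0 and 0 called. Hist1h2bj was at 15.4, 24.4 and 18.8 CPM in HDAC1-cKO and 14.1, 10.2 and 13.4 CPM in WT (0.64 ± 0.22 SE, edgeR adjusted p = 0.193). Hist1h2bm was at 10.2, 16.7 and 11.1 CPM against 7.71, 5.52 and 8.85 CPM (0.79 ± 0.27 SE, edgeR adjusted p = 0.183). For both, every HDAC1-cKO library was above every WT library, as for Hist1h2bn and Hist1h2bb, and HDAC1-cKO replicate 2 was the highest of all 6 libraries in each. Without that library the class median was 0.202, and with offsets for GC content and length it was 0.349. Of the 50-base stretches of Hist1h2bj and Hist1h2bm, 59.4% and 43.8% also occur in another gene.

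Genes of H3 and H4, which form the tetramer at the core of the nucleosome, gave class medians of 0.31 (10 tested of 12) and 0.32 (11 of 13), with 0 genes called. Hist2h3c2, the most abundant H3 gene of this kind at 63.3 FPKM, was at 56.7, 68.5 and 59.5 CPM in HDAC1-cKO and 61.9, 57.5 and 88.1 CPM in WT (-0.17 ± 0.18 SE, edgeR adjusted p = 0.719). WT replicate 3 was its highest library, and leaving that out gave 0.0409. Hist1h3h (26.1 FPKM) did not pass (0.27 ± 0.30 SE, edgeR adjusted p = 0.728), and leaving out HDAC1-cKO replicate 2 gave -0.0423, HDAC1-cKO replicate 1 gave 0.511 and WT replicate 2 gave 0.112. Of their 50-base stretches, 63.5% in Hist2h3c2 and 93.9% in Hist1h3h also occur in another gene. The part of read assignment in these levels was not tested. Hist1h3c was above WT in every HDAC1-cKO library, at 5.67, 6.61 and 5.68 CPM against 4.14, 3.65 and 3.61 CPM, and did not pass (0.66 ± 0.22 SE, edgeR adjusted p = 0.17). The H4 genes Hist1h4i (32.0 FPKM) and Hist1h4d (24.9 FPKM) had log2 fold changes of 0.02 ± 0.17 and 0.00 ± 0.21 SE, and their libraries overlapped. Without HDAC1-cKO replicate 2 the medians of H3 and H4 were 0.0223 and 0.0579, and with offsets for GC content and length 0.0892 and 0.0862.

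Linker histones bind the DNA where it enters and leaves the nucleosome. H1 was the class with the lowest median, -0.30 over 5 tested genes of 6, with 4 of the 5 below 0 and 0 called. Hist1h1b, the most abundant at 25.9 FPKM, was at 19.5, 15.8 and 17.2 CPM in HDAC1-cKO and 28.6, 18.7 and 17.3 CPM in WT (-0.30 ± 0.22 SE, edgeR adjusted p = 0.554), and the groups overlapped. Hist1h1c was lower in all 3 HDAC1-cKO libraries, at 5.06, 5.57 and 4.90 CPM against 10.9, 7.32 and 6.45 CPM, and did not pass (-0.67 ± 0.25 SE, edgeR adjusted p = 0.229). WT replicate 1 was the highest library for both genes. With it left out, Hist1h1b was at -0.053, Hist1h1c at -0.422 and the class median at -0.0347.

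The median of 0.26 over the tested replication-dependent genes moved with 2 libraries. Leaving out HDAC1-cKO replicate 2 gave 0.0487, and leaving out WT replicate 2 gave 0.092. Relative to the mean of all libraries, these genes had a median log2 deviation of 0.36 in HDAC1-cKO replicate 2 and -0.30 in WT replicate 2, and between -0.15 and 0.03 in the other 4 libraries. Of the 54 genes, 36 had a positive fold change with all libraries, 29 without HDAC1-cKO replicate 2 and 31 with offsets for GC content and length. The 26 genes with over 50% of their 50-base stretches shared with other genes had a median of 0.35, and the other 28 had 0.01. The 27 genes at or above the group's median GC content had 0.32 and the 27 below it 0.02. The 13 genes with a polyadenylation signal had a median of 0.02 and the 41 without had 0.30. These splits were not made independent of each other, and the part of GC content, shared sequence or transcript end in the fold changes was not tested.

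Of the 67 replication-dependent genes, 54 lie in the Hist1 region of chromosome 13, bases 21715763 to 23934851 of GRCm38, and 47 of those were tested. The 7 other tested genes in that region had a median log2 fold change of -0.06 and 0 were called. The 13 replication-dependent genes that were not tested had at most 9 counts in any library. They include the testis genes Hist1h1t, Hist1h2ba and Hist1h2aa, which had at most 5, 3 and 0 counts. In 5 others, Hist2h2aa1, Hist2h2aa2, Hist2h2bb, Hist2h3b and Hist2h3c1, no 50-base stretch is unique to the gene, and all were listed at 0, so the table cannot show whether these genes were expressed.

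H2afz, which encodes H2A.Z at many promoters, had the highest FPKM of all histone genes in these poly(A)-primed libraries, with 1925, 1871 and 1778 FPKM in HDAC1-cKO and 1794, 1730 and 1720 FPKM in WT (0.09 ± 0.09 SE, edgeR adjusted p = 0.669). Only HDAC1-cKO replicate 3 lay within the WT range. Its paralog H2afv, which encodes a second form of H2A.Z, averaged 200 FPKM and differed by 0.11 ± 0.22 SE (edgeR adjusted p = 0.860). The ratio of H2afz to H2afv in FPKM was 10.9, 6.91 and 10.2 in HDAC1-cKO and 12.2, 8.41 and 7.59 in WT, and the groups overlapped.

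H3f3b and H3f3a encode the same H3.3 protein, which is placed at active genes by HIRA and at telomeres by DAXX and ATRX. H3f3b was at 891, 668 and 811 FPKM in HDAC1-cKO and 907, 848 and 852 FPKM in WT (-0.13 ± 0.12 SE, edgeR adjusted p = 0.650), with HDAC1-cKO replicate 2 the lowest. H3f3a was at 60.1, 67.7 and 61.5 FPKM against 57.2, 62.7 and 67.8 FPKM (0.02 ± 0.11 SE, edgeR adjusted p = 0.961). The H3f3b to H3f3a ratio was 14.8, 9.87 and 13.2 in HDAC1-cKO and 15.9, 13.5 and 12.6 in WT, so H3f3b was higher than H3f3a per length in every library.

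H2afx was at 557, 624 and 497 CPM in HDAC1-cKO and 596, 676 and 783 CPM in WT. HDAC1-cKO replicate 2 exceeded WT replicate 1, so the groups overlapped, and the gene did not pass with edgeR (-0.29 ± 0.13 SE, edgeR adjusted p = 0.323). It was called lower by limma-voom with sample weights, which gives less weight to libraries with high spread (-0.421, limma-voom adjusted p = 0.0392), and not by DESeq2 (adjusted p = 0.302). Leaving out WT replicate 3, its highest library, gave -0.19. H1f0, a linker histone known from cells that have stopped dividing, was at 219, 164 and 182 CPM in HDAC1-cKO and 175, 147 and 143 CPM in WT. HDAC1-cKO replicate 2 lay within the WT range, and the gene did not pass (0.28 ± 0.14 SE, edgeR adjusted p = 0.376). Leaving out HDAC1-cKO replicate 1, its highest library, gave 0.151. H2afy, which encodes macroH2A1, and H2afj, which encodes H2A.J, averaged 70.5 and 62.4 FPKM with log2 fold changes of -0.10 and 0.20 (edgeR adjusted p = 0.804 and 0.597). In both, HDAC1-cKO replicate 2 was the extreme library, the lowest for H2afy and the highest for H2afj, and leaving it out gave 0.000911 and -0.00754.

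**Figure D4:**
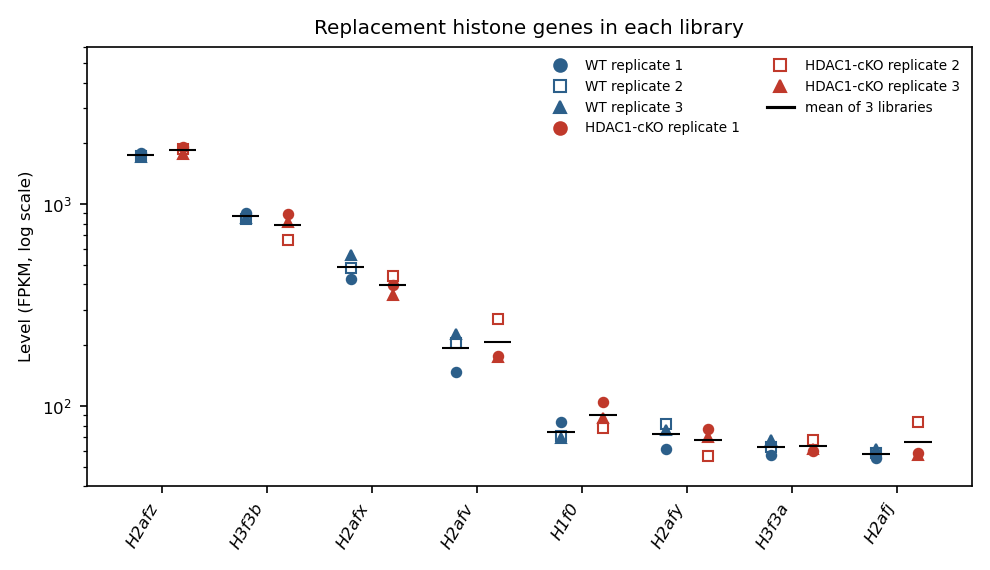
FPKM of the 8 abundant replacement histone genes in each library (log scale), with WT in blue, HDAC1-cKO in red and black bars at the mean of 3 libraries. The genes span H2afz near 1803 FPKM to H2afj near 62.4 FPKM, and the groups overlap for each of them.

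The last tested replacement gene, the oocyte linker histone H1foo, was at 23, 67 and 0 counts in HDAC1-cKO and 9, 24 and 0 counts in WT, and it did not pass (2.00 ± 1.40 SE on the log2 scale, edgeR adjusted p = 0.532). That value was 0.799 with HDAC1-cKO replicate 2 left out, 3.14 with WT replicate 2 left out and 0.266 by limma-voom. The 6 untested replacement genes were the germ cell genes H2afb1, H2afb2, H2afb3 and H1fnt and the macroH2A2 gene H2afy2, each with 0 counts in all 6 libraries, and H1fx with at most 2. At 0 counts, a library of this depth does not show that the gene is silent in these cells.

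Genes that act on histone messages and proteins were read from the same fit, from lists chosen with earlier results of these data known. Of 22 tested genes of histone mRNA processing and decay, 13 were above 0 and 9 below, with a median of 0.05 and 0 called by edgeR. At an unadjusted p under 0.05 there were 1 higher and 1 lower, where 17.0% of all genes lay under it. DESeq2 and limma-voom each called 1 higher, beside 3.93% and 4.81% of all genes. Slbp, which encodes the stem-loop binding protein, was at 923, 534 and 809 CPM in HDAC1-cKO and 776, 722 and 659 CPM in WT (0.07 ± 0.19 SE, edgeR adjusted p = 0.899). Lsm10, a subunit of the U7 particle that cuts histone pre-mRNA, was higher in each HDAC1-cKO library, at 96.0, 90.1 and 79.6 CPM against 56.8, 66.4 and 63.4 CPM (0.51 ± 0.12 SE). It did not pass with edgeR (adjusted p = 0.0811) and was called by DESeq2 (adjusted p = 0.00852) and limma-voom (adjusted p = 0.0407). Cpsf2, a subunit of the cleavage complex, was lower in each (-0.37 ± 0.14 SE, edgeR adjusted p = 0.237).

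Among 35 histone chaperones and exchange factors, 22 were above 0 and 13 below, the median was 0.08, and edgeR called 0. At an unadjusted p under 0.05, 4 were higher and 1 lower, where 17.0% of all genes lay under it. DESeq2 called 2 higher and 1 lower, and limma-voom 5 higher and 1 lower, where these tools called 7.62% and 9.98% of all genes in either direction. Ruvbl2, an ATPase of the complexes that exchange H2A.Z, was at 229, 250 and 255 CPM in HDAC1-cKO and 179, 122 and 136 CPM in WT, with no overlap (0.75 ± 0.15 SE, edgeR adjusted p = 0.0534). It was called by DESeq2 (adjusted p = 0.000588) and limma-voom (adjusted p = 0.00652). Chaf1b, a subunit of the CAF-1 chaperone that deposits H3 and H4 at replication forks, was at 183, 162 and 164 CPM against 132, 124 and 131 CPM, also with no overlap (0.39 ± 0.10 SE, edgeR adjusted p = 0.0971).

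DNA replication, which replication-dependent histone transcription accompanies, was read from 31 genes, 20 above 0 and 11 below, with a median of 0.11. At an unadjusted p under 0.05 there were 3 higher and 1 lower, where 17.0% of all genes lay under it. DESeq2 called 1 higher and limma-voom 2 higher, beside 3.93% and 4.81% of all genes. The edgeR test called 1 higher, where 0.979% of all genes were. This was Gins2, a subunit of the replicative helicase. It rose from 87.7, 68.0 and 76.9 CPM in WT to 136, 132 and 126 CPM in HDAC1-cKO (0.76 ± 0.12 SE, edgeR adjusted p = 0.0311). That call ended when any library other than HDAC1-cKO replicate 2 was left out, with edgeR adjusted p values up to 0.132. Each of these fits kept 26 to 44 of the 306 calls over all genes. Mcm2, another helicase subunit that also binds H3 and H4, was higher in each HDAC1-cKO library (467, 440 and 409 CPM against 377, 333 and 306 CPM) and did not pass (0.37 ± 0.11 SE, edgeR adjusted p = 0.140). E2f2 was lower in each (42.1, 36.0 and 43.5 CPM against 48.9, 66.1 and 55.6 CPM) and did not pass (-0.49 ± 0.15 SE, edgeR adjusted p = 0.148). Ccne2, a cyclin of S phase entry, ranged within HDAC1-cKO from 51.2 CPM in replicate 2 to 203 CPM in replicate 1, against 131 to 161 CPM in WT.

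Markers of other cell types were read beside these results. Tested were 9 B cell and plasma cell, 4 myeloid and dendritic, 5 CD8 T cell and NK cell and 2 stromal and endothelial genes. The edgeR test called 0 of them. At an unadjusted p under 0.05 there were 3 higher and 2 lower, where 17.0% of all genes lay under it. DESeq2 called 2 higher and 1 lower, beside 3.93% and 3.69% of all genes. Limma-voom called 1 higher and 2 lower, beside 4.81% and 5.17% of all genes. Summed B cell and plasma cell markers were at 156 to 318 CPM in HDAC1-cKO and 77.8 to 177 CPM in WT over 10 genes. Most of that sum was Ighm, at 102 to 231 CPM in HDAC1-cKO and 54.1 to 114 CPM in WT. Of the 9 tested genes of this list, 7 were above 0 and 2 below. Cd79b was higher in each HDAC1-cKO library, at 18.8, 25.9 and 18.6 CPM against 10.5, 12.4 and 8.69 CPM. It did not pass (1.00 ± 0.21 SE, edgeR adjusted p = 0.059). Summed myeloid and dendritic markers were at 6.13 to 8.25 CPM against 16.4 to 36.0 CPM over 12 genes, of which Csf1r, Csf3r, Flt3, Cd14 and S100a8 were at 0 in every library. All 4 tested genes of this list were below 0. Most of the sum was Xcr1 (1.55 to 4.78 CPM in HDAC1-cKO, 9.64 to 11.3 CPM in WT) and Lyz2 (0.981 to 3.75 and 2.03 to 22.6 CPM). Xcr1 did not pass (-1.57 ± 0.39 SE, edgeR adjusted p = 0.0869). CD8 T cell and NK cell markers ranged from 207 to 475 CPM in HDAC1-cKO and 107 to 836 CPM in WT, with Ncr1 at 0 throughout. Nearly all of that sum was Gzma (132 to 404 CPM in HDAC1-cKO, 58.5 to 787 CPM in WT) and Cd8b1 (64.6 to 71.4 and 45.0 to 57.0 CPM). Cd8a was at most 2.545 CPM in any library. Stromal and endothelial markers ranged from 58.0 to 81.1 CPM and 63.9 to 99.4 CPM, with Pdpn, Col1a2 and Ccl21a at 0 throughout. Nearly all of that sum was Pecam1, at 57.7 to 80.3 CPM in HDAC1-cKO and 63.3 to 98.4 CPM in WT. A sum carried by so few genes does not measure the share of a cell type. The part of other cell types in the histone levels was not tested.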

How the data were processed

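For 55536 genes in 6 libraries the authors deposited raw read counts and, in a second table, FPKM. Per the labels' protocols, polyadenylated RNA was amplified by Smart-seq2 and the cDNA was tagmented with Nextera XT (no strand information) and read as 50-base single ends on a HiSeq. Per the submitters' processing notes, the builds named are GRCm38/mm10 and GRCh38/hg38, and the tools are STAR 2.5.2b, Picard 2.19.2, R 3.6.1 and DESeq2 1.24.0. No source used here names the counter, its strand setting or its treatment of reads matching several genes. The deposited FPKM are scaled by DESeq2 size factors. Counts were tested with edgeR 4.0.16 in R 4.3.3 (filterByExpr, TMM, robust quasi-likelihood F test, two-sided, genotype only, Benjamini-Hochberg over 15519 genes, adjusted p under 0.05), and the fit was tested on simulated data. CPM use TMM-scaled totals. Reads carry no molecular identifiers, so counts are not independent molecules. All library pairs differed by more than sampling noise. Stem-loops, polyadenylation signals and shared 50-base stretches were read from GENCODE M21 transcripts, promoters from RefSeq GRCm38.p6. Alternatives used limma 3.58.1 and DESeq2 1.42.0, other scalings and filters, a replicate block, GC and length offsets, and leaving out each library. Named genes were the tested replacement genes, called replication-dependent genes, the 2 most abundant of each class, the 4 with the lowest p in each direction, and up to 3 called genes of each pathway list, or the 2 with the lowest p. Members were picked by symbol and biotype alone. That rule, the lists, the tests and the alternatives were chosen with earlier results of these data known. Other genes named, such as Slbp, Ccne2, E2f2, Hist1h2bn and Hist1h2bb, were chosen after their values were seen.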

Additional observations from a re-analysis of the deposited data

How the results depend on the processing

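Hist1h2an was called lower under each scaling, filter and tool tried, with log2 fold changes from -3.36 to -2.55 over all settings. The number of replication-dependent genes called lower was 0 to 1 when each library was left out in turn, and no replication-dependent gene was called higher in any setting. Limma-voom called 1 replacement gene lower, H2afx. The median of the tested replication-dependent genes was 0.0235 with the filter at 10 CPM, which kept 14 of them. The median of the tested replacement genes was -0.047 with limma-voom, -0.0148 with GC and length offsets, and -0.051 to 0.123 when each library was left out. Over all genes, the calls were 700 higher and 656 lower with DESeq2, 747 and 802 with limma-voom, 243 lower with no filter, 251 lower with GC and length offsets, and 15 to 258 higher and 10 to 368 lower when each library was left out. With the replicate block they were 34 higher and 31 lower, and Gins2 was no longer called (edgeR adjusted p = 0.0701) while Hist1h2an was (edgeR adjusted p = 0.0486). Replicate numbers carry no stated pairing, and same-numbered libraries correlated at 0.0238, -0.00161 and -0.0422.

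Of 523 values of the named genes under alternatives, 33 from 11 genes changed sign, none of them called. Hist1h4d was -0.000353 with RLE scaling, -0.0176 with no filter, -0.00122 with DESeq2, -0.106 with limma-voom, -0.0043, -0.00447 and -0.00366 with FPKM pseudocounts of 1, 0.1 and 5, and -0.185 to 0.132 with libraries left out. H3f3a was -0.0045 with no filter, -0.047 with limma-voom, -0.0787 with offsets and -0.051 to 0.0711 with libraries left out. Hist1h2ap was -0.0103, -0.0259 and -0.187 in the same 3 settings and -0.12 to 0.0908 with libraries left out. Hist1h4i was -0.0397 with limma-voom, -0.0548 with offsets and -0.0932 to 0.113 with libraries left out. H2afv was -0.146 with limma-voom and -0.142 to 0.232 with libraries left out. H2afz was -0.0148 and Hist1h2ao -0.112 with offsets. With libraries left out, Hist1h2ao ranged from -0.0306 to 0.131, H2afy from -0.225 to 0.000911, H2afj from -0.00754 to 0.296, Hist1h3h from -0.0423 to 0.511 and Hist2h3c2 from -0.296 to 0.0409. The cause of these changes was not tested. Genes with few counts, such as Hist1h2bp and Hist3h2a, had wide errors, and 5 members at 0 have no 50-base stretch of their own, which depth does not change.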
